A study of Danio rerio with 14 samples.

Results

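The translation initiation and elongation factors described here are the 79 genes of 31014 quantified features whose symbol begins with eif followed by a digit or with eef followed by 1 or 2. The rule uses the symbol alone, but it was chosen with earlier results of these data known. RNA was sequenced from the lateral rectus (LR) of adult zebrafish, an extraocular muscle that abducts the eye, in uninjured fish (CON, 0 hpi, 4 libraries) and in fish at 9 hours post injury (H9, 5 libraries) and 18 hours post injury (H18, 5 libraries). All 3 groups carry the genotype actin:GFP, so the uninjured controls share the transgene with the injured fish. The injury was a surgical excision of part of the muscle, and each library was a pool of LR tissue from several fish, cut from sections of decalcified heads by laser microdissection. Values are the authors' FPKM (fragments per kilobase of transcript, scaled between groups by upper-quartile normalization, and so corrected for gene length), which CuffDiff gave as 1 value for each group. No SD or n is attached to a group FPKM, and no library could be set against another. The p-values and q-values of the authors were not used. No difference below was therefore held against the spread between replicates or tested here. A member is called higher or lower where the group values differed by at least 1.5-fold on log2(FPKM + 0.1), with a mean of at least 1 FPKM over the 3 groups. The pseudocount of 0.1 understates the difference of genes with low FPKM.

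Protein synthesis starts when a small ribosomal subunit, carrying the initiator tRNA bound by eIF2 and held open by eIF1, eIF1A and the large eIF3 complex, is recruited to the capped end of an mRNA. The eIF4 factors do the recruiting: eIF4E binds the cap, eIF4G is the scaffold and eIF4A is an RNA helicase. eIF5 and eIF5B then release eIF2 and join the large subunit, after which eEF1A delivers aminoacyl-tRNAs and eEF2 moves the ribosome along the message. Cells set the rate mostly at eIF2, through kinases that phosphorylate its alpha subunit, and at eIF4E, through binding proteins controlled by the kinase mTOR. Mammalian skeletal muscle is known for exchanging 1 form of eEF1A for another as it matures. Zebrafish carry several paralogs of many of these factors, left in part by a genome duplication in the ancestor of teleost fish.

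Genes for the initiation machinery were mostly within 1.5-fold of CON or higher in injured LR muscle, while the most abundant eEF1A and eEF2 genes of uninjured muscle were lower and their paralogs higher. Of 62 eif genes averaging 1 FPKM or more, 31 were higher and 6 lower in H9, and 31 were higher and 9 lower in H18. Of the 79 genes, 73 had a mean of at least 1 FPKM. In H9, 36 of these 73 (49.3%) were higher than in CON, where 34.9% of all 13447 features with that mean were higher, and 10 (13.7%) were lower, where 31.4% of all features were. In H18, 36 (49.3%) were higher than in CON, against 32.8% of all features, and 13 (17.8%) were lower, against 34.7%. The median log2 fold change of the 73 genes was 0.57 in H9 and 0.56 in H18 relative to CON, beside medians of 0.09 and -0.01 over all features. The 2 comparisons share the CON libraries, so the second is no repeat of the first. Between the injured groups, 3 of the 73 (4.11%) were higher in H18 than in H9, against 15.5% of all features, and 9 (12.3%) were lower, against 24.7%, with a median of -0.10 beside -0.15 over all features. Without the filter on low values, 39 of the 79 were higher and 11 lower in H9 than in CON, and 38 were higher and 15 lower in H18 than in CON. No share over all features was computed without the filter, so these counts have no background beside them.

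These counts depend on how the groups are scaled, the H18 counts most. Scaling the groups to equal sums of FPKM after leaving out the 3 most abundant features, a setting chosen after the data were seen, moved the median of all features to 0.28 in H9 over CON, to -0.27 in H18 over CON and to -0.59 in H18 over H9. On that scale 28 members were higher and 20 lower in H18 than in CON (26.5% and 41.3% of all features), and 0 were higher and 33 lower in H18 than in H9 (7.40% and 50.1% of all features). Centred on the median of all features, 5 members were higher and 6 lower in H18 than in H9 (20.02% and 18.7% of all features). Both scalings shift members and all features nearly alike. The distance between their medians could therefore hardly move, and it is no check of the scaling. As reported, centred and with equal sums, it was 0.48, 0.48 and 0.47 in H9 over CON and 0.57, 0.57 and 0.56 in H18 over CON. In H18 over H9 it was 0.04, 0.04 and 0.03.

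**Figure D1:**
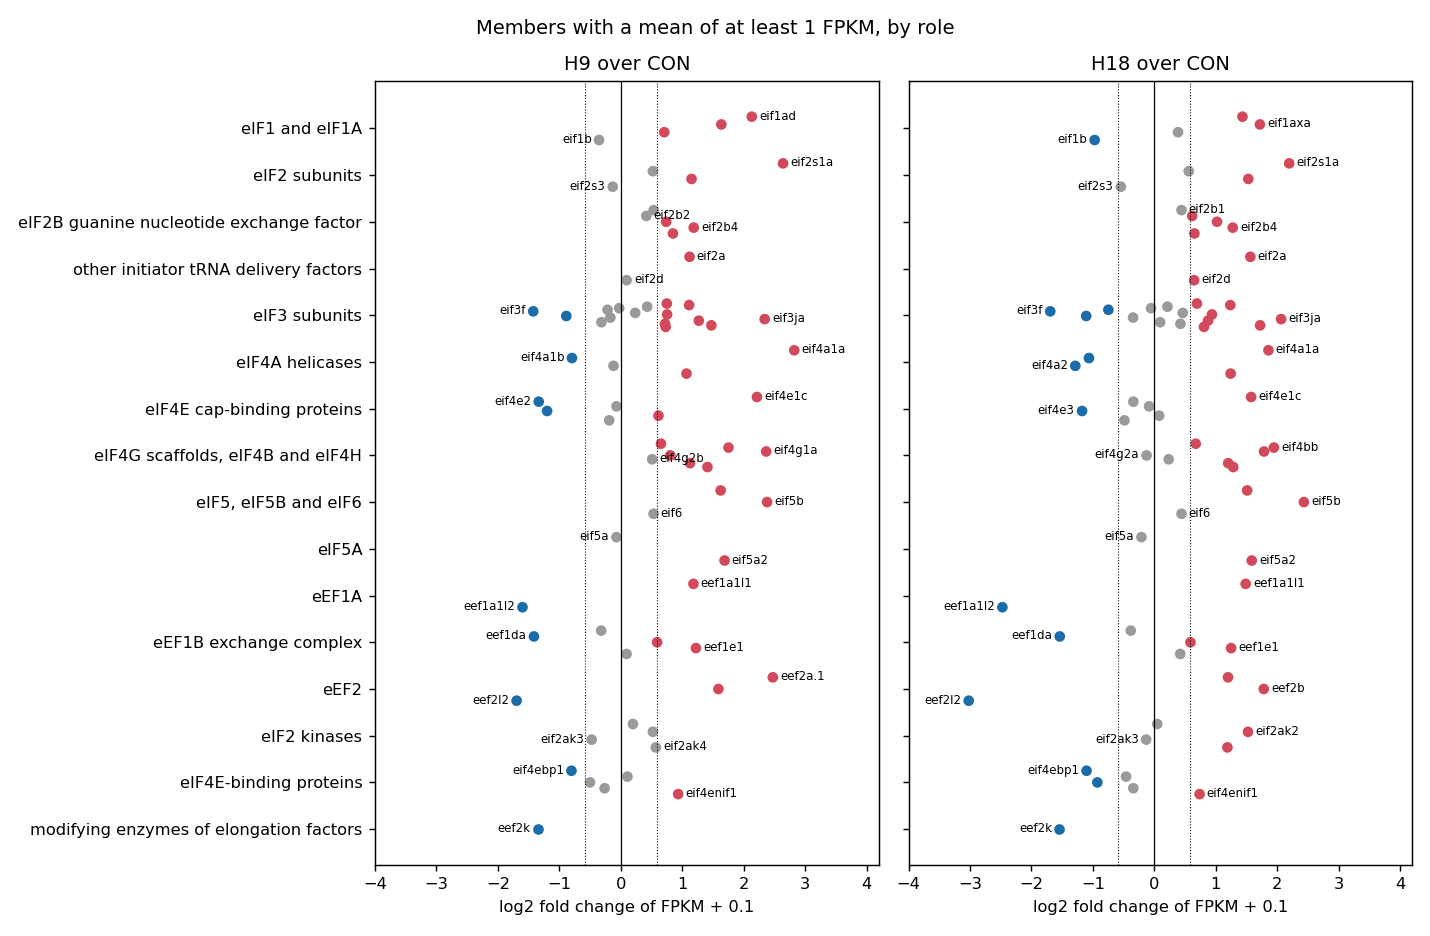
Log2 fold change of FPKM + 0.1 over CON (horizontal axis) for each of the 73 genes that averaged 1 FPKM or more, in rows by role, for H9 (left) and H18 (right). Each point is 1 gene from 1 group value, red where it was at least 1.5-fold higher, blue where at least 1.5-fold lower and grey otherwise. The dotted lines mark 1.5-fold, and the highest and lowest gene of each row is named. Points of eEF1A and eEF2 lie on both sides, from -1.70 for eef2l2 to 2.47 for eef2a.1 in H9, while the points of eIF2B, eIF4G, eIF4B and eIF4H lie above 0 in H9.

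Markers of muscle were present in CON as the tissue label says, but marker levels differed between the groups, and this stands beside every result below. The summed FPKM of 16 skeletal muscle markers, such as creatine kinase, actin and troponin genes, was 15180.2 in CON, 1785 at 9 hpi and 937 at 18 hpi, and 14 of the 15 with a mean of at least 1 FPKM were lower in H9 and in H18 than in CON. Of 17 leukocyte markers, 12 were higher and 3 lower in H9, and 13 were higher and 3 lower in H18, with a summed FPKM of 341 in CON, 423 at 9 hpi and 359.7 at 18 hpi. In CON this sum came mostly from cd74a (159 FPKM) and cd74b (104 FPKM), which were lower after injury. The median log2 fold change of the 17 leukocyte markers was 2.42 in H9 and 2.02 in H18, so the sum understates their difference. Myelin and glia markers summed to 317 in CON, 109.9 at 9 hpi and 65.0 at 18 hpi, with 6 of 7 lower in each injured group. Erythrocyte markers summed to 205 in CON, 199 at 9 hpi and 143 at 18 hpi, endothelial markers to 34.8, 47.9 and 27.6, fibroblast markers to 158, 117 and 133, retinal markers to 46.7, 9.50 and 0.614, and epidermal markers to 245, 217 and 246, each in the order CON, H9, H18. The even epidermal sum came mostly from krt8, with 167, 175 and 227 FPKM in the same order. Of 6 epidermal markers with a mean of at least 1 FPKM, 4 were lower in H9 and 5 in H18, and 0 were higher. Of the markers in the tables, 0 were listed at 0 in all 3 groups. In bulk tissue, fewer cells of a type and less RNA per cell cannot be told apart, and the part of these shifts in the values of translation factors was not tested.

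The factor eEF1A, which brings aminoacyl-tRNA to the ribosome, was the most abundant of all the factors, and most of its RNA came from a different paralog after injury. The gene eef1a1l2 had 615 FPKM in CON, 203 at 9 hpi and 111 at 18 hpi, with log2 fold changes of -1.60 in H9 and -2.47 in H18 relative to CON, so its level was lowest at 18 hpi. Its neighbour eef1a1l1 had 389 FPKM in CON, 882 at 9 hpi and 1089 at 18 hpi, with log2 fold changes of 1.18 in H9 and 1.49 in H18. By FPKM, eef1a1l2 ranked 68 among all features in CON and 220 in H18, whereas eef1a1l1 ranked 127 in CON and 26 in H18. The eef1a1l1 share of the summed FPKM of the 5 eEF1A genes was 38.6% in CON, 81.2% at 9 hpi and 90.7% at 18 hpi. The eef1a1l2 share was 61.2% in CON, 18.7% at 9 hpi and 9.23% at 18 hpi. The order of the pair was thus opposite in both injured groups to that in uninjured muscle, although the sum over the family was close to even at 1006 FPKM in CON, 1086 at 9 hpi and 1200.3 at 18 hpi. The log2 fold change of this sum was 0.11 in H9 and 0.26 in H18, and the H18 value was -0.01 with equal sums of FPKM.

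The eEF1A pair lies side by side on chromosome 19. On GRCz10, eef1a1l1 spans 43523417 to 43526740 and eef1a1l2 spans 43527015 to 43539280, so 274 bp separate the gene spans. The other eEF1A genes were low in every group: eef1a1a had 0.604 FPKM in CON, 1.56 at 9 hpi and 0.290 at 18 hpi, eef1a1b had 1.18 in CON, 0.109 at 9 hpi and 0.121 at 18 hpi, and eef1a2 had 0.0221 in CON, 0.0639 at 9 hpi and 0.378 at 18 hpi. In mammals eEF1A2 is the form of mature muscle and neurons, but in this zebrafish muscle eef1a2 stayed below 1 FPKM. The coding sequences of eEF1A paralogs are very alike, and how reads were divided between them depends on the correction for reads mapping to several places.

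**Figure D2:**
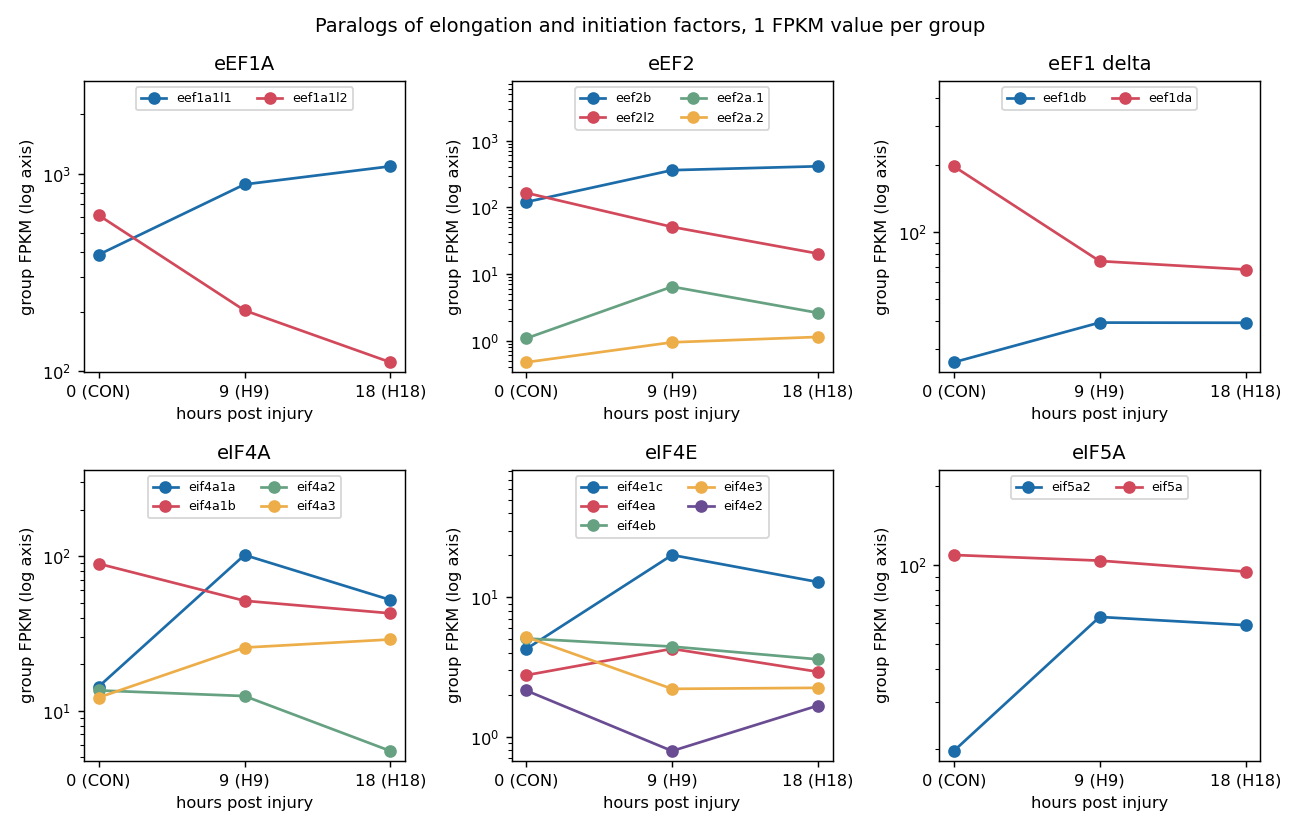
Group FPKM (log axis) at 0, 9 and 18 hours post injury for the paralogs of 6 factors, with 1 point per group and lines joining the groups of a gene. The lines of eef1a1l1 and eef1a1l2, of eef2b and eef2l2, of eif4a1a and eif4a1b and of eif4e1c and eif4eb cross between 0 and 9 hpi. In contrast, eef1da stays above eef1db and eif5a above eif5a2.

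The translocase eEF2, which moves the ribosome by 1 codon after each peptide bond, showed the same kind of exchange. The gene eef2l2, on chromosome 5 (40885313 to 40894701), had 165 FPKM in CON, 50.8 at 9 hpi and 20.2 at 18 hpi, with log2 fold changes of -1.70 in H9 and -3.02 in H18. The value of -3.02 in H18 was the lowest of all 73 genes, and H18 was also lower than H9 (log2 -1.33). In contrast, eef2b had 120.0 FPKM in CON, 361 at 9 hpi and 412 at 18 hpi, with log2 fold changes of 1.59 in H9 and 1.78 in H18. The eef2b share of all eEF2 FPKM was 41.9% in CON, 86.1% at 9 hpi and 94.5% at 18 hpi. The eef2l2 share was 57.5% in CON, 12.1% at 9 hpi and 4.63% at 18 hpi. Here the sum over the family was 286 FPKM in CON, 419 at 9 hpi and 436 at 18 hpi, a log2 fold change of 0.55 in H9 and 0.61 in H18. It was at 1.5-fold in H18 only, and with equal sums it was 0.74 in H9 and 0.35 in H18. The annotated span of eef2b on chromosome 2 (56687717 to 57133495) overlaps 14 other features, and how reads in the overlap were assigned was not tested. The tandem copies eef2a.1 and eef2a.2 on chromosome 22 were far lower. The gene eef2a.1 had 1.08 FPKM in CON, 6.45 at 9 hpi and 2.61 at 18 hpi and was highest at 9 hpi (log2 2.47 over CON), whereas eef2a.2 had 0.473 in CON, 0.943 at 9 hpi and 1.13 at 18 hpi and did not reach a mean of 1 FPKM.

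The kinase eEF2K, which phosphorylates eEF2 and slows elongation, was lower after injury as well. The gene eef2k had 10.9 FPKM in CON, 4.21 at 9 hpi and 3.67 at 18 hpi, with log2 fold changes of -1.35 in H9 and -1.55 in H18. The 2 injured groups differed little (log2 -0.19 in H18 over H9).

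**Figure D3:**
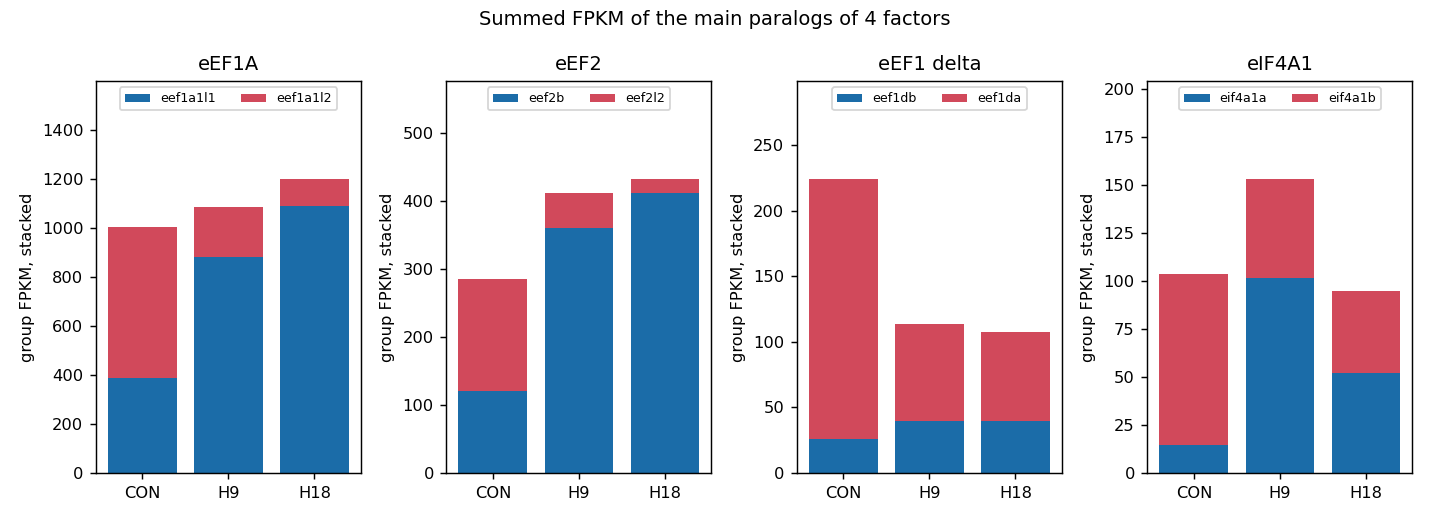
Group FPKM in CON, H9 and H18 for the main paralogs of eEF1A, eEF2, eEF1 delta and eIF4A1, stacked so that the bar height is their sum. The bars of eEF1A differ little in height between groups, while eef1a1l1 (blue) makes up 38.6% of the family in CON and 90.7% in H18, and the bars of eEF1 delta are lower in H9 and H18.

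The exchange complex eEF1B recharges eEF1A with GTP, and its subunits did not behave alike. Its delta subunit had a dominant gene in uninjured muscle, eef1da, with 198 FPKM in CON, 74.3 at 9 hpi and 68.1 at 18 hpi, which was lower in both injured groups (-1.41 in H9 and -1.54 in H18). The other delta gene, eef1db, had 26.1 FPKM in CON, 39.3 at 9 hpi and 39.3 at 18 hpi, a log2 fold change of 0.59 at each time, just past 1.5-fold. The H9 call of eef1db was lost after centring (0.50) and the H18 call with equal sums (0.33). The gene eef1da was the more abundant throughout, and the sum of both was 224 FPKM in CON, 114 at 9 hpi and 107 at 18 hpi, a log2 fold change of -0.98 in H9 and -1.06 in H18 that lay between -1.32 and -0.79 over both times and every scaling tried. The catalytic beta subunit gene eef1b2 had 192 in CON, 153 at 9 hpi and 147 at 18 hpi, and the gamma subunit gene eef1g, which anchors the complex, had 185 in CON, 198 at 9 hpi and 248 at 18 hpi. Neither reached 1.5-fold in either comparison as reported, though with equal sums eef1b2 was past 1.5-fold lower in H18 (-0.65). The gene eef1e1, whose mammalian product sits in the multi-tRNA synthetase complex, had only 1.62 FPKM in CON, 3.91 at 9 hpi and 3.99 at 18 hpi but was higher in both (1.22 in H9 and 1.25 in H18).

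The hypusine-containing factor eIF5A helps ribosomes through difficult peptide stretches and in termination. The major gene eif5a was even, with 109 FPKM in CON, 104 at 9 hpi and 94.1 at 18 hpi. The minor gene eif5a2 had 19.6 FPKM in CON, 63.3 at 9 hpi and 58.9 at 18 hpi, with log2 fold changes of 1.69 in H9 and 1.58 in H18. Its share of the eIF5A sum was 15.2% in CON, 37.9% at 9 hpi and 38.5% at 18 hpi, so eif5a remained the more abundant of the pair in every group.

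In the cap-binding machinery, the helicase eIF4A showed paralogs crossing as well. The gene eif4a1a (chromosome 7, 26239339 to 26246896) had 14.3 FPKM in CON, 102 at 9 hpi and 52.0 at 18 hpi, with log2 fold changes of 2.82 in H9 and 1.86 in H18, and the H9 value was the highest of all 73 genes. H18 was lower than H9 (log2 -0.97), though still well above CON. The gene eif4a1b had 89.2 FPKM in CON, 51.3 at 9 hpi and 42.6 at 18 hpi, with log2 fold changes of -0.80 in H9 and -1.06 in H18. The eif4a1a share of the eIF4A1 sum was 13.8% in CON, 66.4% at 9 hpi and 55.0% at 18 hpi. The sum itself was 103 FPKM in CON, 153 at 9 hpi and 94.6 at 18 hpi, a log2 fold change of 0.56 in H9 and -0.13 in H18. The eif4a2 level was near that of CON at 9 hpi and lower at 18 hpi, with 13.5 FPKM in CON, 12.4 at 9 hpi and 5.47 at 18 hpi (log2 -1.29 in H18 over CON). The gene eif4a3, whose product belongs to the exon junction complex rather than to the initiation machinery, had 12.1 FPKM in CON, 25.6 at 9 hpi and 28.8 at 18 hpi and was higher in both.

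The scaffold eIF4G and the helicase cofactors eIF4B and eIF4H had the largest share called higher in H9 among roles of more than 3 genes. Of 7 genes, 6 (85.7%) were higher in H9 and 5 (71.4%) in H18, beside 34.9% and 32.8% of all features. In each comparison 0 were lower, beside 31.4% and 34.7% of all features. In H18 the exchange factor eIF2B had a larger share called higher as reported, at 80.0%. With equal sums the H18 calls of its genes eif2b2 (0.36) and eif2b5 (0.40) were lost, so this order depends on the scaling. The gene eif4g1a had 6.35 FPKM in CON, 33.1 at 9 hpi and 22.1 at 18 hpi, with log2 fold changes of 2.37 in H9 and 1.79 in H18. The gene eif4g3b had 1.82 in CON, 4.10 at 9 hpi and 4.32 at 18 hpi. eIF4B, which stimulates the helicase, was represented mainly by eif4bb, with 7.55 FPKM in CON, 25.7 at 9 hpi and 29.3 at 18 hpi and log2 fold changes of 1.75 in H9 and 1.95 in H18. Its paralog eif4ba, at 2.25 in CON, 3.603 at 9 hpi and 3.66 at 18 hpi, was close to the threshold (0.65 in H9 and 0.67 in H18) and lost its H9 call after centring (0.56) and its H18 call with equal sums (0.42). The gene eif4h had 4.44 in CON, 11.96 at 9 hpi and 10.96 at 18 hpi. The genes for eIF4G2, a relative that lacks the cap-binding protein's docking site, differed from these: eif4g2a had 10.3 FPKM in CON, 18.1 at 9 hpi and 9.44 at 18 hpi and was higher in H9 only. Its paralog eif4g2b, with 13.9 in CON, 19.8 at 9 hpi and 16.4 at 18 hpi, was not called in either comparison as reported. With equal sums eif4g2b was past 1.5-fold higher in H9 (0.70).

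Among genes for the cap-binding protein, eif4e1c stood apart. It had 4.25 FPKM in CON, 20.1 at 9 hpi and 12.9 at 18 hpi, with log2 fold changes of 2.22 in H9 and 1.58 in H18, and its share of the FPKM of the 4 eIF4E class 1 genes was 35.2% in CON, 69.8% at 9 hpi and 66.4% at 18 hpi. In CON the most abundant class 1 gene was eif4eb, with 5.06 FPKM in CON, 4.43 at 9 hpi and 3.59 at 18 hpi. Its share of the class was 41.9% in CON, 15.4% at 9 hpi and 18.5% at 18 hpi. The gene eif4ea had 2.76 FPKM in CON, 4.27 at 9 hpi and 2.92 at 18 hpi and was higher in H9 only (0.61, or 0.52 after centring). The last class 1 gene, eif4e1b, was listed at 0 in every group. The class 3 gene eif4e3, whose product binds the cap in an unusual way in mammals, was lower in both, with 5.18 FPKM in CON, 2.2004 at 9 hpi and 2.24 at 18 hpi (-1.20 in H9 and -1.18 in H18). The gene eif4e2, for a cap-binding protein that represses translation in mammals, had 2.14 FPKM in CON, 0.788 at 9 hpi and 1.67 at 18 hpi and was lower in H9 only. Its relative eif4e2rs1 had 3.97 in CON, 3.78 at 9 hpi and 3.74 at 18 hpi. With equal sums, eif4eb (-0.74) and eif4e2 (-0.59) were past 1.5-fold lower in H18.

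Among genes for proteins that bind eIF4E, the eif4ebp genes, whose products keep it from eIF4G, were not called higher in either injured group. The gene eif4ebp1 had 17.2 FPKM in CON, 9.83 at 9 hpi and 7.97 at 18 hpi, with log2 fold changes of -0.80 in H9 and -1.10 in H18. The gene eif4ebp2 had 16.7 in CON, 18.0 at 9 hpi and 12.1 at 18 hpi and eif4ebp3l had 11.4 in CON, 9.47 at 9 hpi and 8.96 at 18 hpi, neither reaching 1.5-fold as reported. With equal sums both were past 1.5-fold lower in H18 (-0.72 and -0.60). The gene eif4ebp3 had 1.53 in CON, 1.05 at 9 hpi and 0.755 at 18 hpi and was lower in H18 only. The eIF4E transporter gene eif4enif1, for a protein that carries eIF4E into the nucleus and into processing bodies, had 1.63 FPKM in CON, 3.20 at 9 hpi and 2.78 at 18 hpi and was higher in both (0.93 in H9 and 0.74 in H18). The H18 value of eif4enif1 fell short of 1.5-fold with equal sums (0.48).

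Subunits of eIF3, the largest initiation factor, went several ways, although the complex works as a unit. Of 16 subunit genes averaging 1 FPKM or more, 8 (50.0%) were higher and 2 (12.5%) lower in H9, beside 34.9% and 31.4% of all features, and 7 (43.8%) were higher and 3 (18.8%) lower in H18, beside 32.8% and 34.7%. The summed FPKM of all 17 was 535 in CON, 539.5 at 9 hpi and 527 at 18 hpi. The lowest value in both comparisons was that of eif3f (chromosome 1, 9612916 to 9619933), which had 196 FPKM in CON, 72.9 at 9 hpi and 60.5 at 18 hpi, with log2 fold changes of -1.42 in H9 and -1.69 in H18. In uninjured muscle eif3f thus exceeded the next subunit gene, eif3ea at 54.9 FPKM in CON, 53.8 at 9 hpi and 52.8 at 18 hpi, by more than 3 times, and in H18 it was close to eif3ba, the next in that group. Its mammalian counterpart is known as a target of the atrophy ligase MAFbx in muscle.

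**Figure D4:**
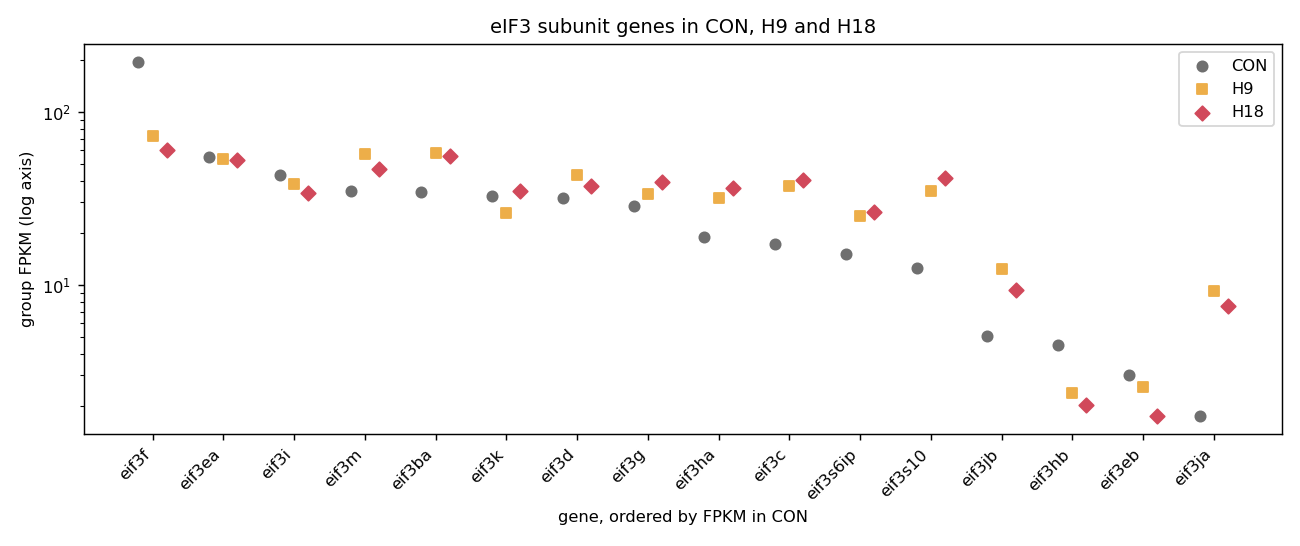
Group FPKM (log axis) of the 16 eIF3 subunit genes that averaged 1 FPKM or more, ordered from left to right by their level in CON, with grey circles for CON, yellow squares for H9 and red diamonds for H18. In CON the values run from 196 for eif3f to 1.73 for eif3ja, and in H18 the 12 genes from eif3f to eif3s10 lie between 60.5 and 26.5.

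Higher in both injured groups were genes for the loosely bound subunit j, which acts at the decoding site, and for core subunits. The gene eif3ja had 1.73 FPKM in CON, 9.17 at 9 hpi and 7.55 at 18 hpi, with log2 fold changes of 2.34 in H9 and 2.06 in H18. Its paralog eif3jb had 5.05 in CON, 12.3 at 9 hpi and 9.34 at 18 hpi (1.27 in H9 and 0.87 in H18). The gene eif3s10, for subunit a, the backbone of the complex, had 12.6 FPKM in CON, 35.0 at 9 hpi and 41.6 at 18 hpi (1.47 in H9 and 1.72 in H18). The gene eif3c, for its partner subunit c, had 17.2 FPKM in CON, 37.3 at 9 hpi and 40.6 at 18 hpi (1.11 in H9 and 1.24 in H18). Smaller differences in the same direction were seen for eif3ba, with 34.5 FPKM in CON, 58.0 at 9 hpi and 55.8 at 18 hpi, for eif3ha, with 18.8 in CON, 31.8 at 9 hpi and 36.2 at 18 hpi, and for eif3s6ip, which encodes subunit l, with 15.1 in CON, 25.1 at 9 hpi and 26.5 at 18 hpi. The gene eif3m, with 34.9 FPKM in CON, 57.5 at 9 hpi and 46.9 at 18 hpi, was higher in H9 only. The calls of eif3ba and eif3s6ip in H18 were lost with equal sums (0.43 and 0.55).

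The remaining eIF3 genes were even or lower. Within 1.5-fold in both comparisons were eif3ea, the cap-contacting subunit gene eif3d with 32.04 FPKM in CON, 43.1 at 9 hpi and 37.2 at 18 hpi, eif3g with 28.6 in CON, 33.6 at 9 hpi and 39.4 at 18 hpi, eif3i with 43.3 in CON, 38.4 at 9 hpi and 34.0 at 18 hpi and eif3k with 32.6 in CON, 26.2 at 9 hpi and 34.8 at 18 hpi. The minor paralogs eif3hb and eif3eb were lower, eif3hb in both groups with 4.47 FPKM in CON, 2.37 at 9 hpi and 2.02 at 18 hpi and eif3eb in H18 with 2.998 in CON, 2.57 at 9 hpi and 1.74 at 18 hpi. With equal sums, eif3d was past 1.5-fold higher in H9 (0.62) and eif3i was past 1.5-fold lower in H18 (-0.61). The gene eif3bb had a mean under 1 FPKM. The spans of eif3jb and eif3bb each overlap 1 other feature.

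The genes of the ternary complex, in which eIF2 holds GTP and the initiator tRNA, differed by subunit. Its alpha subunit, the one that stress kinases phosphorylate, was encoded mainly by eif2s1b, with 17.1 FPKM in CON, 24.6 at 9 hpi and 25.3 at 18 hpi, and to a lesser extent by eif2s1a, with 2.21 in CON, 14.3 at 9 hpi and 10.5 at 18 hpi. As reported, only eif2s1a was past 1.5-fold (2.64 in H9 and 2.19 in H18), and its share of the alpha sum was 11.4% in CON, 36.8% at 9 hpi and 29.3% at 18 hpi. The beta subunit gene eif2s2 had 15.1 FPKM in CON, 33.6 at 9 hpi and 43.6 at 18 hpi, with log2 fold changes of 1.15 in H9 and 1.53 in H18. The gamma subunit gene eif2s3, which carries the GTP-binding site, was the most abundant of the 4 in CON. It had 46.4 FPKM in CON, 42.3 at 9 hpi and 31.8 at 18 hpi and was not called in either injured group (-0.13 in H9 and -0.54 in H18). With equal sums, eif2s3 was past 1.5-fold lower in H18 (-0.81) and eif2s1b was past 1.5-fold higher in H9 (0.71).

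The exchange factor eIF2B, which reloads eIF2 with GTP, has 5 subunits, and each of the 5 genes had a higher value in H9 and in H18 than in CON. The catalytic epsilon subunit gene eif2b5 had 3.38 FPKM in CON, 6.16 at 9 hpi and 5.37 at 18 hpi, eif2b4 had 2.33 in CON, 5.44 at 9 hpi and 5.79 at 18 hpi and eif2b3 had 1.72 in CON, 2.94 at 9 hpi and 3.59 at 18 hpi. All of these were called in both comparisons. The gene eif2b2, with 6.79 FPKM in CON, 9.09 at 9 hpi and 10.5 at 18 hpi, was called in H18 only. The gene eif2b1, for the alpha subunit that senses phosphorylated eIF2, was called in neither, with 4.58 in CON, 6.68 at 9 hpi and 6.26 at 18 hpi. Their summed FPKM was 18.8 in CON, 30.3 at 9 hpi and 31.5 at 18 hpi. With equal sums, the H18 calls of eif2b2 and eif2b5 were lost (0.36 and 0.40), and eif2b1 and eif2b2 were past 1.5-fold in H9 (0.72 and 0.60). The span of eif2b5 overlaps 7 other features.

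The eIF2 kinases, which shut down general initiation under stress, were low, and none was called at 9 hpi as reported. The gene eif2ak2, for the kinase PKR that senses double-stranded RNA, had 0.662 FPKM in CON, 0.994 at 9 hpi and 2.09 at 18 hpi. The gene eif2ak4, for the amino acid sensor GCN2, had 1.62 FPKM in CON, 2.45 at 9 hpi and 3.82 at 18 hpi and lies on an unplaced scaffold. Both were higher in H18 than in CON (1.52 and 1.19 on the log2 scale) and higher than in H9 (1.003 and 0.62), but with equal sums neither call over H9 remained, and both genes were instead past 1.5-fold in H9 over CON (0.69 and 0.75). The endoplasmic reticulum kinase gene eif2ak3 (PERK), with 2.58 in CON, 1.83 at 9 hpi and 2.34 at 18 hpi, and the heme-regulated kinase gene eif2ak1, with 3.15 in CON, 3.63 at 9 hpi and 3.26 at 18 hpi, were called in no comparison. The span of eif2ak1 overlaps 1 other feature.

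Among factors that prepare the small subunit, eif1axa, for the eIF1A that promotes scanning, had 4.73 FPKM in CON, 14.9 at 9 hpi and 15.8 at 18 hpi (1.64 in H9 and 1.72 in H18). Its paralog eif1axb had 15.7 in CON, 25.7 at 9 hpi and 20.6 at 18 hpi. The gene eif1b, listed under the current symbol eif1 and coding for the factor that guards start codon choice, ran the other way at 52.8 FPKM in CON, 41.3 at 9 hpi and 26.9 at 18 hpi and was lower in H18 (log2 -0.97). The nuclear eIF1A relative eif1ad was low, with 1.04 FPKM in CON, 4.87 at 9 hpi and 2.97 at 18 hpi. Alternative carriers of the initiator tRNA had 2.37 in CON, 5.27 at 9 hpi and 7.21 at 18 hpi for eif2a and 1.56 in CON, 1.67 at 9 hpi and 2.50 at 18 hpi for eif2d.

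At subunit joining, eif5b had the highest log2 fold change in H18 over CON among the 73 members. Its product is the GTPase that brings the large subunit, and it had 1.35 FPKM in CON, 7.42 at 9 hpi and 7.71 at 18 hpi, with log2 fold changes of 2.38 in H9 and 2.43 in H18. The gene eif5, for the activator of GTP hydrolysis by eIF2, was the more abundant at 15.5 FPKM in CON, 48.1 at 9 hpi and 44.5 at 18 hpi (1.62 in H9 and 1.51 in H18). The gene eif6, whose product keeps free large subunits from joining too early, had 20.4 FPKM in CON, 29.6 at 9 hpi and 27.8 at 18 hpi. It was within 1.5-fold in both comparisons as reported, and past 1.5-fold in H9 with equal sums (0.72).

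The step between 9 and 18 hpi involved few members as reported, though not with equal sums. The 3 called higher in H18 than in H9 were eif2ak2, eif2ak4 and eif4e2. The 9 called lower were eef1a1l2, eef2l2, eef2a.1, eif1ad, eif1b, eif4a1a, eif4a2, eif4e1c and eif4g2a, from a log2 fold change of -0.62 for eif1b to -1.33 for eef2l2. Centring ended the calls of eif1b (-0.47), eif1ad (-0.55) and eif4e1c (-0.49). These 9 include the paralogs lowest after injury (eef1a1l2 and eef2l2) and several whose level was highest at 9 hpi (eif4a1a, eif4e1c and eef2a.1).

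Paralogs of 16 factors could be set side by side, and in 5 of them (eEF1A, eEF2, eEF1 delta, eIF4A1 and eIF3 subunit h) a gene called higher stood beside a gene called lower, in H9 and in H18. In the other 11, no such opposition was seen. Of these, eIF3 subunit b could not show it, since eif3bb had a mean under 1 FPKM. How often unrelated genes were called in opposite directions was not computed. Over all features, 34.9% were higher and 31.4% lower in H9, and 32.8% and 34.7% in H18. Opposite calls would therefore be frequent among unrelated genes too, and the 5 families were not held against such a background. The case of eEF1 delta rests on eef1db, which was just past 1.5-fold. Its H9 call was lost after centring (0.50) and its H18 call with equal sums (0.33). Of the 16 sums as reported, only that of eEF1 delta was lower by 1.5-fold, at both times. With equal sums of FPKM, that of 4E-BP3 was past 1.5-fold lower in H18 as well (-0.67). Each of these families was also counted once by its sum, beside the genes without a paralog. So counted, 25 were higher and 5 lower in H9, and 29 were higher and 7 lower in H18. Counted singly, 36 genes were higher in each, and 10 and 13 were lower. Summing leaves fewer units to count, so these counts are not shares of the same number. No share over all features was computed with paralogs summed. The sums of eIF4B (log2 1.57 in H9 and 1.74 in H18) and eIF3 subunit j (1.65 and 1.30) were the 2 highest in H9, and eEF1 delta was the lowest in both.

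Beyond the factors themselves, genes that end translation, recycle ribosomes and bind poly(A) tails were more often higher than lower. Of 17 such genes averaging 1 FPKM or more, 9 (52.9%) were higher and 3 (17.6%) lower in H9, and 10 (58.8%) were higher and 5 (29.4%) lower in H18, with medians of 0.69 and 0.80. The shares over all features were 34.9% higher and 31.4% lower in H9 and 32.8% higher and 34.7% lower in H18, the last not far from that of the list. The gene etf1b, for the release factor eRF1 that reads stop codons, had 10.1 FPKM in CON, 40.0 at 9 hpi and 31.8 at 18 hpi. The gene gspt1l, for its GTPase partner eRF3, had 9.14 FPKM in CON, 43.1 at 9 hpi and 39.0 at 18 hpi. Its less abundant relative gspt1 had 4.10 in CON, 2.89 at 9 hpi and 2.04 at 18 hpi and was lower in H18 (log2 -0.98). The ribosome recycling ATPase gene abce1 had 6.86 FPKM in CON, 26.8 at 9 hpi and 15.3 at 18 hpi. Genes for poly(A)-binding proteins differed in opposite directions: pabpc1a had 50.1 FPKM in CON, 102 at 9 hpi and 120.4 at 18 hpi, while pabpc4 had 64.4 in CON, 21.5 at 9 hpi and 12.4 at 18 hpi and pabpc1b had 17.4 in CON, 9.90 at 9 hpi and 7.57 at 18 hpi. The gene larp1, for a repressor of mRNAs that encode the translation machinery, had 1.71 FPKM in CON, 8.98 at 9 hpi and 6.86 at 18 hpi and the highest log2 fold change of this list in H9 (2.33).

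Genes listed for mTOR signaling and translational control went both ways. In vertebrates, mTOR controls eIF4E-binding proteins and eEF2K. The list also holds kinase genes outside mTOR signaling, and they were counted with the rest. Of these, mknk1, rps6ka1, rps6ka3a and rps6ka3b were higher in H9. The genes mknk2a and mknk2b were within 1.5-fold in H9 and lower in H18. No count was made without them. Of 32 genes, 8 (25.0%) were higher and 13 (40.6%) lower in H9, and 5 (15.6%) were higher and 15 (46.9%) lower in H18, with medians of 0.12 and -0.44. Over all features, 34.9% were higher and 31.4% lower in H9, and 32.8% were higher and 34.7% lower in H18, so the share lower in H9 was not far from that of all features. The lowest was sesn1, for a sestrin that restrains mTORC1 when leucine is short, with 33.4 FPKM in CON, 3.96 at 9 hpi and 4.38 at 18 hpi. Some other restraining genes were lower too, such as akt1s1 (PRAS40) with 10.7 FPKM in CON, 2.37 at 9 hpi and 2.74 at 18 hpi, deptor with 4.78 in CON, 2.67 at 9 hpi and 1.93 at 18 hpi and tsc1a with 5.26 in CON, 1.74 at 9 hpi and 1.53 at 18 hpi. Not all were: ddit4 (REDD1) had 14.1 FPKM in CON, 25.6 at 9 hpi and 13.9 at 18 hpi and was higher in H9 (0.86), and sesn2, with 1.11 in CON, 1.56 at 9 hpi and 1.37 at 18 hpi, was called in neither comparison. The gene pdcd4a, for an inhibitor of eIF4A, was lower as well, with 6.09 FPKM in CON, 1.99 at 9 hpi and 2.29 at 18 hpi. So was the raptor gene rptor, for a subunit that mTORC1 needs to find its substrates, with 3.81 in CON, 2.48 at 9 hpi and 1.96 at 18 hpi, while mtor was within 1.5-fold, with 4.14 in CON, 5.98 at 9 hpi and 5.34 at 18 hpi. In contrast, the S6 kinase gene rps6kb1b had 2.67 FPKM in CON, 9.90 at 9 hpi and 5.96 at 18 hpi and the Rag GTPase gene rragca had 2.38 in CON, 7.54 at 9 hpi and 7.21 at 18 hpi, whereas rragd had 4.85 in CON, 0.958 at 9 hpi and 0.666 at 18 hpi.

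Genes of the integrated stress response, which eIF2 kinases set off, were mostly lower in H18 than in H9 as reported. Of 14 genes, 7 (50.0%) were higher and 1 (7.14%) lower in H9 than in CON, beside 34.9% and 31.4% of all features. In H18, 3 (21.4%) were higher and 5 (35.7%) lower than in CON, beside 32.8% and 34.7%, so the share lower was that of all features. In H18 over H9, 0 were higher and 9 (64.3%) lower, beside 15.5% and 24.7%. This list was not recounted with equal sums, where 50.1% of all features were lower in H18 than in H9. The transcription factor gene atf3 had 1.09 FPKM in CON, 10.1 at 9 hpi and 3.41 at 18 hpi. The gene ppp1r15a, for the GADD34 subunit that directs dephosphorylation of eIF2 alpha, had 5.52 FPKM in CON, 12.6 at 9 hpi and 3.98 at 18 hpi. The pseudokinase gene trib3 had 8.43 FPKM in CON, 15.6 at 9 hpi and 4.95 at 18 hpi. The 1 gene called lower in H9 was chac1, for an enzyme that degrades glutathione, with 57.2 FPKM in CON, 32.5 at 9 hpi and 14.8 at 18 hpi. Another 6 were within 1.5-fold in H9. Of these, ddit3 (21.6 FPKM in CON, 17.6 at 9 hpi, 9.58 at 18 hpi), atf5b (21.3, 20.5, 10.8) and gadd45ab (5.12, 4.06, 1.86) were lower in H18 than in CON. The rest (atf5a, impact and sesn2, the last also counted in the mTOR list) were called in neither comparison with CON. The 14 genes are those found of 17 listed, and no atf4 gene is among them.

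The enzymes that modify eIF5A and eEF2 were mostly higher. Of 9 genes, 7 (77.8%) were higher and 0 lower in H9, beside 34.9% and 31.4% of all features, and 5 (55.6%) were higher and 1 (11.1%) lower in H18, beside 32.8% and 34.7%. For hypusine on eIF5A, dohh had 4.63 FPKM in CON, 10.1 at 9 hpi and 9.65 at 18 hpi and dhps had 3.73 in CON, 5.74 at 9 hpi and 3.65 at 18 hpi. For diphthamide on eEF2, dph3 had 0.820 FPKM in CON, 5.19 at 9 hpi and 3.67 at 18 hpi and dph2 had 2.72 in CON, 8.39 at 9 hpi and 6.39 at 18 hpi, while the gene lower in H18 was dnajc24 (also known as DPH4), with 1.42 in CON, 1.40 at 9 hpi and 0.501 at 18 hpi. Of 8 mitochondrial translation factors, 2 (25.0%) were higher and 2 (25.0%) lower in H9, and 2 (25.0%) were higher and 1 (12.5%) lower in H18, each share below that of all features. The mitochondrial EF-Tu gene tufm was even at 19.1 FPKM in CON, 20.9 at 9 hpi and 17.5 at 18 hpi.

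**Figure D5:**
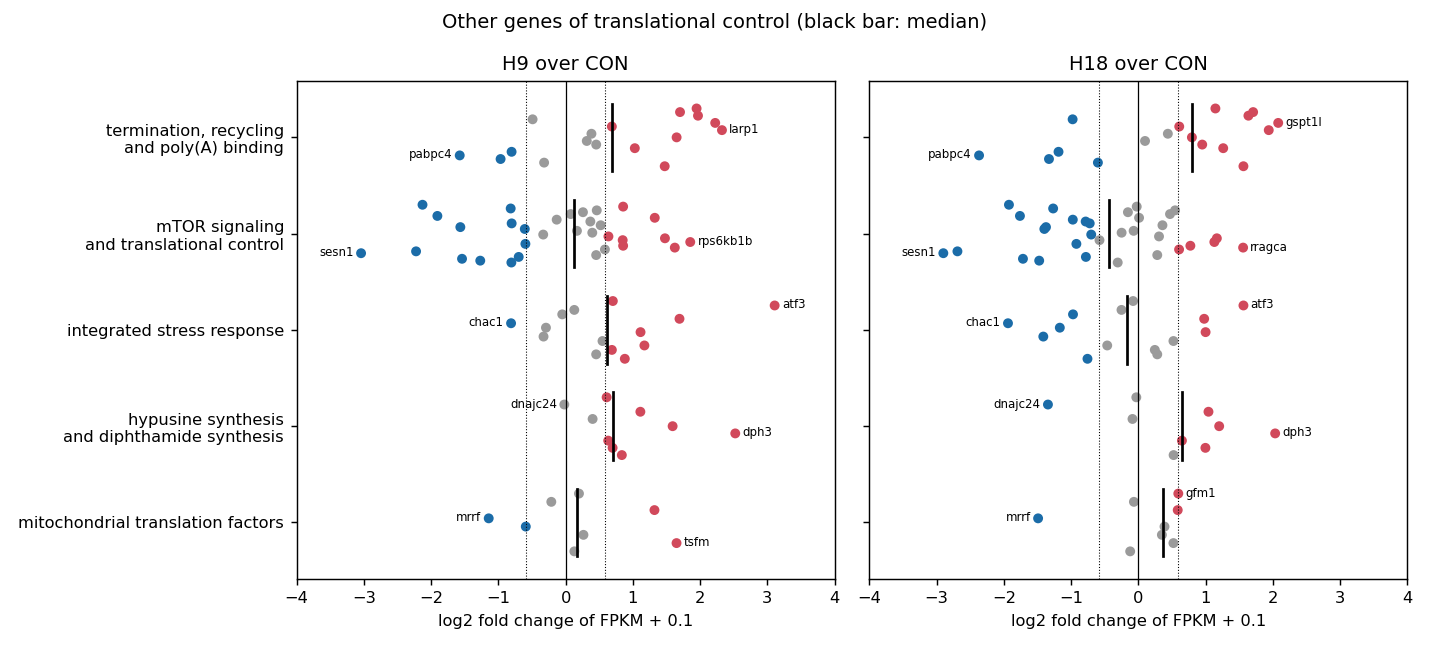
Log2 fold change of FPKM + 0.1 over CON for genes of translational control other than the initiation and elongation factors, with a mean of at least 1 FPKM, in H9 (left) and H18 (right). Each point is 1 gene, coloured as at least 1.5-fold higher (red), at least 1.5-fold lower (blue) or neither (grey), and the black bars are medians. The list of mTOR signaling and translational control reaches from sesn1 (-3.04) to rps6kb1b (1.85) in H9. The median of the integrated stress response list is 0.62 in H9 and -0.16 in H18.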

How the data were processed

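Ribosome-depleted total RNA was made into stranded single-end libraries and sequenced. Reads were aligned by the authors to the GRCz10 assembly using TopHat2 2.0.13 and Bowtie2 2.2.1, and annotated features were quantified with Cuffdiff 2.2.1, using multi-read correction, compatible-hits normalization and upper-quartile normalization, as the study methods and the submitters' processing notes state. The deposited FPKM are 1 value per group, in which the libraries were combined. The deposited tables also hold the authors' fold changes, p-values, q-values and calls, none of which was used. A deposited table of read counts has 14 columns whose names match no sample label, so it was not used. The count test that had been planned was therefore replaced by a description of the group FPKM, and the depth per library is unknown here.

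Log2 fold changes were computed on FPKM + 0.1, and a gene was called at 1.5-fold with a mean of at least 1 FPKM over the 3 groups. The call procedure was run on simulated group values with planted fold changes and no spread between replicates. This checks the arithmetic of the calls only, and it cannot show how reliable a call is. Members were assigned to 16 roles by symbol. Named in the text were the most abundant and the most extreme genes of each role, paralogs called in opposite directions and a list of known factors. The members that remained were added after their values were seen, so that each is accounted for. From the other lists, genes were picked for their size of difference or their role. Members, lists and named genes were chosen with earlier results of these data known. All 79 genes matched the zebrafish RefSeq table by Entrez identifier. Coordinates were shifted to a 1-based start. The planned motif description was not made, since promoter sequences were not used here. Where the labels share replicate numbers, the columns carry none. Python 3.11.15, numpy 2.4.6, pandas 2.3.3 and matplotlib 3.10.9 were used.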

Additional observations from a re-analysis of the deposited data

How the results depend on the processing

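No gene called higher or lower turned its direction under any setting tried for single genes (pseudocounts of 1 and 0.01, centring, equal sums). None could have turned, so this gives no support to the directions. A pseudocount keeps the sign of a difference, and both scalings shifted values by less than 1.5-fold. A mean of at least 5 FPKM left 23 members higher and 9 lower in H18 than in CON, where 36 and 13 had been. That filter also removes members from the number that can be called. With equal sums of FPKM, 20 in place of 13 were lower in H18 than in CON, and counting each paralog family once by its sum gave 5 in place of 10 lower in H9 and 7 in place of 13 lower in H18, while the 36 higher became 25 in H9 and 29 in H18. For H18 against H9, the 3 members called higher became 1 with a pseudocount of 1, 0 with a mean of at least 5 FPKM, 5 after centring, 1 at 2-fold and 0 with equal sums, and the 9 called lower became 3 at 2-fold, 33 with equal sums and 4 with paralogs summed. Equal sums and summed paralogs were chosen after the data were seen. The mean of at least 5 FPKM and the summed paralogs left fewer units to call, so their counts are not shares of the same number. Shares over all features were computed only as reported, centred and with equal sums. The counts under the other settings therefore have no background beside them. The cause of these shifts was not tested. Against CON, a pseudocount of 1 lost the call of 4 members in H9 and of 8 in H18, among them eef1db and eif4ba in both. Equal sums lost the call of 8 members in H18. They also brought members not called as reported past 1.5-fold, 8 in H9 and 7 in H18. Without counts tied to groups, the planned count tests and their scalings, a low-count filter and leaving out each library were not run. No paired analysis was possible because the count columns carry no replicate numbers and the group FPKM come from no test. Each value is 1 pooled estimate, so genes close to 1.5-fold are uncertain.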

Other observations

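Some features annotated as translation factors lie outside the symbol rule and were looked up after the values of the members were seen. An eIF4 gamma 1-like gene, LOC100333590, had 3.50 FPKM in CON, 8.61 at 9 hpi and 10.3 at 18 hpi, and an elongation factor 1-delta-like gene, LOC100148045, had 4.80 in CON, 2.09 at 9 hpi and 0.573 at 18 hpi. An eIF4 gamma 3 gene, LOC566131, was even, with 1.48 in CON, 1.40 at 9 hpi and 1.27 at 18 hpi. The selenocysteine elongation factor gene eefsec was even, with 1.501 in CON, 1.43 at 9 hpi and 1.37 at 18 hpi. The gene fam86a, described as an eEF2 lysine methyltransferase, had 1.05 in CON, 1.33 at 9 hpi and 1.64 at 18 hpi.

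The summed FPKM of the 79 members was 3039 in CON, 3402 at 9 hpi and 3422 at 18 hpi. As a share of the FPKM of all features but the 3 most abundant, this was 0.383% in CON, 0.489% at 9 hpi and 0.360% at 18 hpi. Among the 73 genes averaging 1 FPKM or more, the highest of the 3 group values was in CON for 23, in H9 for 25 and in H18 for 25.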
